A study of Mus musculus with 3 samples.

Results

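The antigen presentation and interferon response genes are a set of 38 mouse genes chosen by symbol: MHC class I and class II genes, the peptide processing and loading machinery, interferon receptors and their signalling chain, sensors of foreign nucleic acid, and interferon targets. All 38 were among the 24384 named genes of the deposited count table. They were read in 3 poly(A) RNA-seq libraries of N1E-115 cells, a mouse neuroblastoma cell line, whose cell type the labels give as neuroblast. All libraries came from cells at day 0, labelled as untreated and with a genotype spelled "Wyld type", so there was 1 group and no comparison between conditions. Nothing in the labels says that the replicates were separate cultures, so the spread between them may be technical.

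MHC class I molecules show peptides from inside the cell to cytotoxic T cells: proteasomes cut proteins, the TAP transporter carries the peptides into the endoplasmic reticulum, and a loading complex fits them onto a heavy chain paired with beta-2-microglobulin. MHC class II molecules present peptides of ingested proteins, mainly in professional antigen-presenting cells. Interferons bind receptors that act through JAK kinases, STAT proteins and interferon regulatory factors (IRFs), which raise MHC class I and many antiviral genes. Neuroblastoma cells are known for low MHC class I levels that interferon gamma can raise.

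Of the 38 genes, 29 (76.3%) were detected, that is, reached 1 CPM (1 count in 1000000 of a library) in every library, against 47.3% of all named genes. At least 100 CPM in every library was reached by 4 of them, B2m, Jak1, Calr and Pdia3, against 9.23% of all named genes. Below the detection level were H2-T23, H2-Aa, H2-Ab1, Nlrc5, Ciita, Irf7, Ifih1, Isg15 and Ifit1, of which H2-Aa and H2-Ab1 had no counts at all. Scaled to exon length, so that genes can be compared with one another, the 29 detected genes had a median of 6.89 CPM per kilobase of exon, against 7.91 for all detected genes, and 13 of the 29 lay above that median. The parts of the presentation route that many cells use for general protein folding were thus measured at high levels. The transactivators of MHC genes had at most 5 counts in a library. Of the 4 interferon targets 2 (50%) were detected, near the 47.3% of all named genes, while Isg15 and Ifit1 were not.

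**Figure D1:**
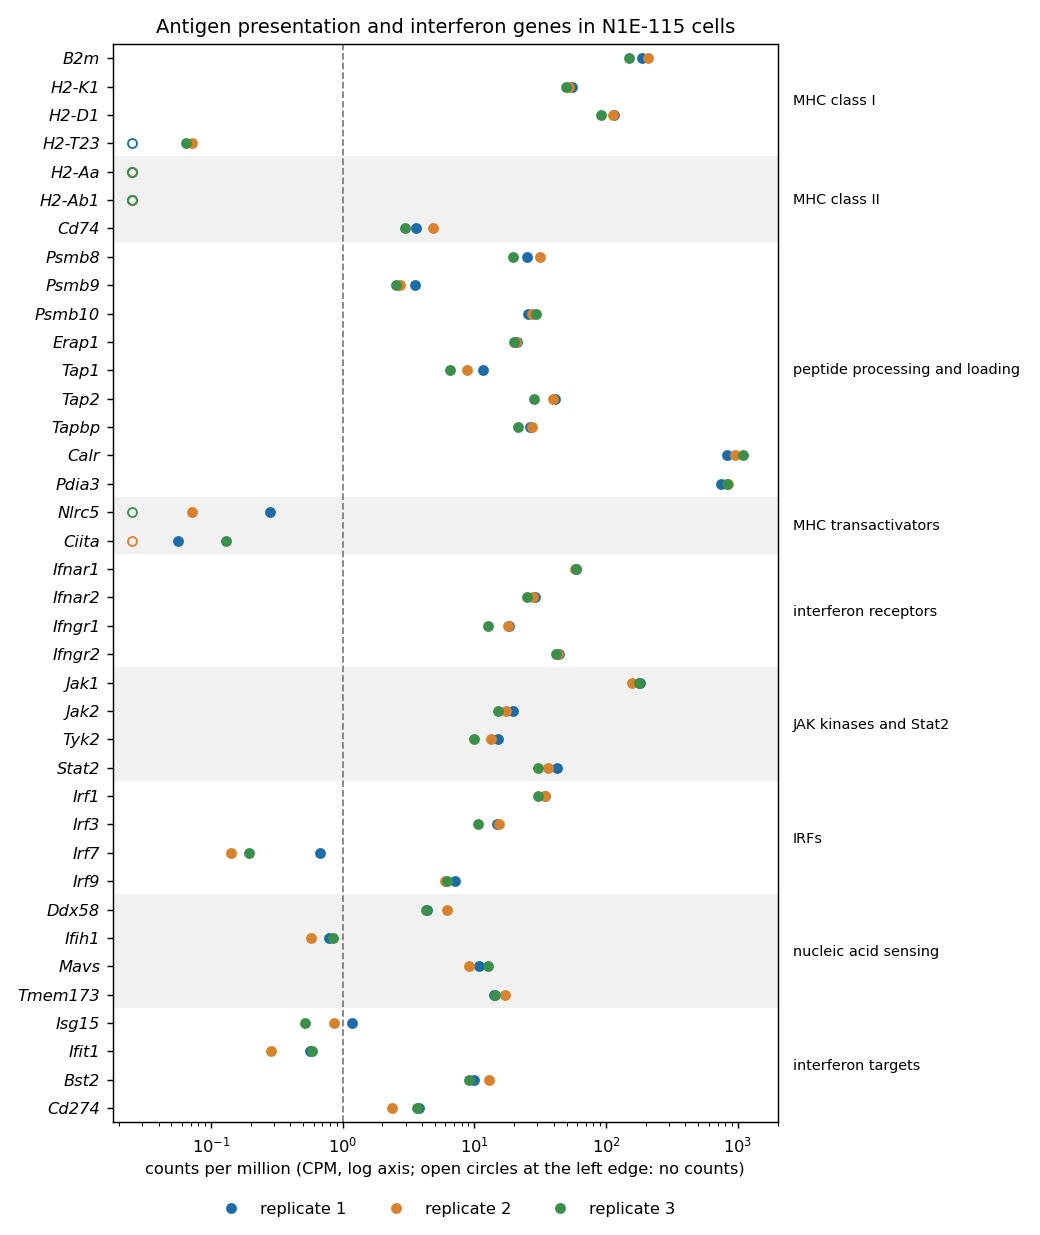
Level of each of the 38 genes in each library, as CPM on a log axis, with genes grouped by role and 1 point per library. The dashed line marks 1 CPM; open circles at the left edge mark libraries with no counts. Calr and Pdia3 lie at the right, from 741 to 1096 CPM, while H2-T23, Nlrc5 and Ciita lie left of the line and H2-Aa and H2-Ab1 have open circles alone.

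The libraries held 13942014 to 17731376 counts in named genes, so that 1 count was worth 0.0564 to 0.0717 CPM, and a count of 0 allows up to 3 counts, or 0.169 to 0.215 CPM per library. These limits cover counting error only. All 12 neuroblast markers listed (among them Hand2 and Dbh) were detected, with a summed level of 6173 to 6828 CPM. None of 14 blood and immune markers was detected: 11, among them Ptprc, Csf1r, Itgam and Cd3e, had no counts, and the summed level was 0.451 to 0.717 CPM. Of the fibroblast markers 2 of 6 were detected, Pdgfra (4.24 CPM) and Col1a1 (2.45), with a summed level of 6.67 to 7.84 CPM for all 6. Of the endothelial markers 2 of 4 were detected, Vwf (7.26 CPM) and Pecam1 (6.69), with a summed level of 11.1 to 17.3 CPM for all 4.

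The promoters of 6 of the genes are printed to set sequence elements beside the levels: B2m, H2-K1 and H2-D1 as the class I genes with counts in every library, H2-T23 and Isg15 as genes whose promoter holds an interferon element while the transcript was nearly absent or low, and Irf1 as a detected factor. Each is the 250 bases before the start given by RefSeq on GRCm38.p6, written in the direction of transcription. The letters are those of the C57BL/6J reference. N1E-115 comes from a mouse of another strain, and its own promoter sequences were not read. Capitals mark matches on either strand to GAAANNGAAA (the interferon-stimulated response element, bound by STAT and IRF complexes), to AANNGAAA (the IRF core, contained in the former), to TTCNNNGAA (the GAS element of STAT dimers, which reads the same on both strands) and to GGGATTCCC (a kappaB element, bound by NF-kappaB). The windows lie at chr2:122147437-122147686 (+ strand), chr17:34000348-34000597 (- strand), chr17:35262844-35263093 (+ strand), chr17:36032702-36032951 (- strand), chr4:156200819-156201068 (- strand) and chr11:53769764-53770013 (+ strand). GENCODE models of H2-D1 and H2-T23 begin further upstream than RefSeq's, so these windows overlap annotated H2-D1 and H2-T23 transcript.
B2m: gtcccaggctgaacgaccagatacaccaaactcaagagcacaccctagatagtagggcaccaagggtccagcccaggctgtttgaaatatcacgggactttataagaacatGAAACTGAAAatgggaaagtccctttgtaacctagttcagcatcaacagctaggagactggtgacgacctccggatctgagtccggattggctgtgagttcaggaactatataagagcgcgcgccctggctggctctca
H2-K1: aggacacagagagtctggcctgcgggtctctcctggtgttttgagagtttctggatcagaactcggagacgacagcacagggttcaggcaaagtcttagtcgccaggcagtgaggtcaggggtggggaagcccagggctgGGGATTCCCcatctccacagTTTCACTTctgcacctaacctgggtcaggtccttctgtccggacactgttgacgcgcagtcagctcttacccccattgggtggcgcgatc
H2-D1: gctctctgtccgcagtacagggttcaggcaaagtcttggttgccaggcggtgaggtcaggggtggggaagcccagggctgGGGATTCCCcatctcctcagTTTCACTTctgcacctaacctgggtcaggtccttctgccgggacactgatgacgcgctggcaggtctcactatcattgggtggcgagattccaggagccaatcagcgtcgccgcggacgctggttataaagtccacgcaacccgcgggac
H2-T23: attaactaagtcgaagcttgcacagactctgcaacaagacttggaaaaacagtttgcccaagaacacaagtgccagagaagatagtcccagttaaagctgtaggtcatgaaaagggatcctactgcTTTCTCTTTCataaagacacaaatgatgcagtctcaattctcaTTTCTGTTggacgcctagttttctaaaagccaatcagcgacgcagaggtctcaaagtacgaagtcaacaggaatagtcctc
Isg15: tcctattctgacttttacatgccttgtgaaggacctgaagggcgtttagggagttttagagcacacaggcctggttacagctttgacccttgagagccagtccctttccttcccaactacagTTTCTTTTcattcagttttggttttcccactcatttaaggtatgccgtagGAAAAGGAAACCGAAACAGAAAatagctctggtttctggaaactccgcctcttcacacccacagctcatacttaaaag
Irf1: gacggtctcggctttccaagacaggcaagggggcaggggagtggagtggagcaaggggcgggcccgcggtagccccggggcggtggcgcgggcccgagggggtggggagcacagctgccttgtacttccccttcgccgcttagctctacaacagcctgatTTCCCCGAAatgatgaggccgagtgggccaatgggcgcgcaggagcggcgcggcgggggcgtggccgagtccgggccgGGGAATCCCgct

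A window was found for 32 of the 38 genes. GAAANNGAAA matched in 6 of these (18.8%), B2m, H2-T23, Stat2, Isg15, Ifit1 and Bst2, against 2.98% of all 32851 windows of the same length. AANNGAAA matched in 12 (37.5%), against 21.3%, and TTCNNNGAA in 4 (12.5%), Psmb8, Ifnar2, Irf1 and Bst2, against 7.02%. GGGATTCCC matched in 3, H2-K1, H2-D1 and Irf1, against 0.301% of all windows. TGACG, the core of the cyclic AMP response element, matched in 10 (31.2%) against 17.8%, and CCAAT, the site of the NF-Y factor, in 17 (53.1%) against 33.8%. The windows of Psmb9 and Tap1 overlap by 225 bases. Their TGACG and CCAAT matches are the same genomic bases, counted for both genes. The windows of H2-K1 and H2-D1 were 91% identical over 177 aligned columns, a stretch that includes the kappaB element and the IRF core. A match is a description of the letters: of the 6 genes with GAAANNGAAA, B2m, Stat2 and Bst2 were detected in these untreated cells and H2-T23, Isg15 and Ifit1 were not.

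Among the class I genes, B2m, the light chain shared by all class I molecules, had 187, 208 and 148 CPM in replicates 1, 2 and 3 (181 ± 30.3, SD, n = 3). H2-D1, a classical heavy chain, had 114, 112 and 92.0 CPM (106 ± 12.1), and H2-K1, the other classical heavy chain of this list, had 54.6, 52.0 and 49.8 CPM (52.1 ± 2.44). Replicate 3 was the lowest for each of these genes, and B2m was above H2-D1, and H2-D1 above H2-K1, in every library. Per kilobase of exon, B2m had 211 ± 35.2 CPM, higher than 98.2% of all detected genes. H2-D1 had 41.0 ± 4.69, higher than 88.9% of them, and H2-K1 had 17.7 ± 0.832, higher than 73.2%. B2m was 3.57 ± 0.358 times the sum of both heavy chains per kilobase, and H2-D1 made up 69.7 ± 1.69% of that sum. These spreads are between libraries and do not cover the choice of gene length. Against B2m, H2-K1 was lower by a log2 ratio of -3.55 ± 0.21, and H2-D1 by -2.35 ± 0.12. With the length of the longest transcript of each gene these became -2.90 and -2.06, and without length scaling -1.78 and -0.77. For H2-K1 that transcript has 1874 bases, against 1619 in its longest protein-coding transcript, a length that was not tried.

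H2-T23, the non-classical heavy chain known as Qa-1, a ligand of receptors on natural killer cells, had counts of 0, 1 and 1. These 2 counts have an exact Poisson 95% interval of 0.242 to 7.22. Over 16 listed class I genes of the H2 region, H2-K1 and H2-D1 together held 95.2 ± 0.253% of the counts, and only H2-Q4 (2.38 ± 0.339 CPM) and H2-T10 (4.07 ± 1.04) of the other 14 were detected. The values of H2-K1, H2-D1, H2-Q4 and H2-T10 were fractional in the table, which estimated counts can be when reads are shared between similar genes. Of the 50-base stretches of the transcript, 8.79% in H2-K1, 14.3% in H2-D1 and 29.8% in H2-T23 occurred in other genes on either strand, and none in B2m. N1E-115 comes from a mouse of another strain than the C57BL/6J reference, and class I genes differ between strains. Whether reads of these genes were lost, or divided among them differently, for that reason was not tested.

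Of the class II genes, H2-Aa and H2-Ab1, the alpha and beta chains of the class II molecule, had no counts in any library. Whether reads of these chains were lost through differences from the reference strain was not tested. Cd74, the invariant chain that guides class II molecules to endosomes, had counts of 64, 67 and 46, or 3.61, 4.81 and 2.98 CPM (3.80 ± 0.927), and was detected while the chains it binds were at 0. Its level per kilobase, 2.26 ± 0.552 CPM, was above that of 19.1% of all detected genes. Of the 14 immune markers, 11 were at 0 in the same libraries, while Cd68 had counts of 6, 7 and 6, Cd79a had 6 counts in all and Aif1 had 1. Vwf (7.26 CPM), Pecam1 (6.69) and Pdgfra (4.24) were above Cd74, and the other fibroblast and endothelial markers were below it. The part of other cells in the Cd74 level was not tested. Of 9 further class II genes, 4 (44.4%) were detected, against 47.3% of all named genes. These were Rfxap (20 ± 1.98 CPM), Rfx5 (12.1 ± 0.245) and Rfxank (9.69 ± 0.912), subunits of the RFX complex that binds MHC promoters, and H2-DMa (5.18 ± 1.05), a chain of the peptide editor of class II.

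The factors that switch on MHC genes through RFX were at the limit of counting. Nlrc5, the class I transactivator, had counts of 5, 1 and 0, and the exact Poisson 95% interval of their sum of 6 is 2.2 to 13.1. Ciita, the class II transactivator, had counts of 1, 0 and 2, a sum of 3 with an interval of 0.619 to 8.77. Ciita exons share 329 bases with those of Dexi on the opposite strand. The RFX subunits were thus detected in every library, and neither transactivator was.

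In the processing route, the immunoproteasome genes were compared with the constitutive subunits that they replace in cells exposed to interferon. Psmb8 had 24.9, 31.5 and 19.6 CPM (25.3 ± 5.94), Psmb9 had 3.55, 2.73 and 2.53 (2.94 ± 0.544) and Psmb10 had 25.4, 27.4 and 29.2 (27.3 ± 1.92). The libraries did not keep one order: replicate 2 was the highest for Psmb8, replicate 1 for Psmb9 and replicate 3 for Psmb10. Each immunoproteasome gene was below its constitutive partner in all 3 libraries, but by unequal amounts. Per kilobase, Psmb8 stood at 7.49 ± 1.76 CPM against 150 ± 14.8 for Psmb5, a log2 ratio of -4.34 ± 0.27. Psmb9 stood at 0.802 ± 0.149 against 93.2 ± 10.1 for Psmb6, a log2 ratio of -6.82 ± 0.34. Psmb10 stood at 16.0 ± 1.13 against 79.4 ± 5.33 for Psmb7, a log2 ratio of -2.30 ± 0.12.

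The ranges of these log2 ratios over the libraries did not overlap: -2.41 to -2.17 for Psmb10, -4.65 to -4.15 for Psmb8 and -7.09 to -6.44 for Psmb9. With the longest transcript in place of all exons, the ratio was -3.51 for Psmb8 and -7.43 for Psmb9, in the same order. That transcript need not be coding. It has 2884 bases for Psmb9 and 1907 for Psmb8, against 1352 and 1628 in the longest protein-coding transcript. Ratios on protein-coding transcripts were not computed. Without any length scaling the ratios were -2.42 for Psmb8, -3.31 for Psmb10 and -5.86 for Psmb9. The order of Psmb8 and Psmb10 thus rests on the exon lengths. These were 899 bases for Psmb5 against 3381 for Psmb8, and 3421 for Psmb7 against 1705 for Psmb10. The immunoproteasome genes made up 7.21, 6.84 and 7.05% of the summed level per kilobase of the 6 catalytic subunits (7.03 ± 0.188). This share differed little between libraries, although its 3 genes were highest in different libraries. With 3 libraries, no sign-flip test of such a ratio can go below a two-sided exact p of 0.25.

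**Figure D2:**
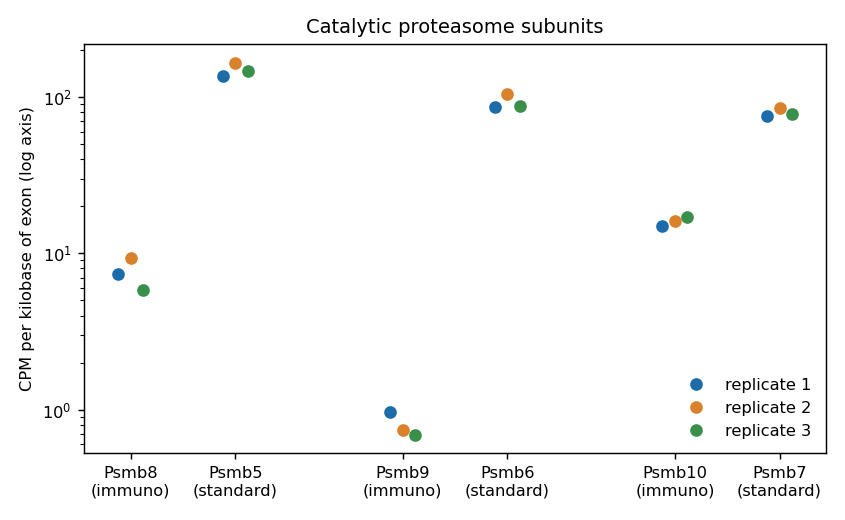
Levels of the catalytic proteasome subunits in CPM per kilobase of exon, on a log axis, with 1 point per library and each immunoproteasome gene beside the constitutive subunit it replaces. Psmb9 lies lowest, at 0.69 to 0.971, and its distance to Psmb6 is the widest of the 3 pairs.

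Tap1 and Tap2 encode the chains of the peptide transporter, which works as a pair. Tap1 had 11.7, 8.75 and 6.48 CPM (8.97 ± 2.60), and Tap2 had 40.8, 39.4 and 28.5 (36.2 ± 6.73). Both were highest in replicate 1 and lowest in replicate 3, and Tap1 had the highest coefficient of variation of the 29 detected genes (29%). Per kilobase, Tap1 was below Tap2 in every library, with a log2 ratio of -2.56 ± 0.20. Tapbp, or tapasin, which holds the class I molecule at the transporter, had 26.2, 27.5 and 21.3 CPM (25 ± 3.31), and was above Tap1 per kilobase by a log2 ratio of 2.09 ± 0.30. Erap1, which trims peptides in the endoplasmic reticulum, had 20.9, 20.8 and 20.1 CPM (20.6 ± 0.451).

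Calr (calreticulin) and Pdia3 (ERp57) are part of the loading complex and also fold glycoproteins in general. Calr had 829, 944 and 1096 CPM (956 ± 134), highest in replicate 3. Pdia3 had 741, 842 and 827 CPM (803 ± 54.9). Per kilobase both lay above at least 98.6% of all detected genes, at 332 ± 46.5 and 256 ± 17.5 CPM. The chaperone Canx (calnexin), which precedes Calr in class I folding, had 300 ± 19.4 CPM per kilobase, and the log2 ratio of Calr to Canx was -0.00, 0.18 and 0.24, so that Calr was the higher in 2 of 3 libraries. Without length scaling the mean ratio turned to -0.57, from 0.14 ± 0.12. All 10 further processing genes were detected, the highest per kilobase being Canx, Hspa5 (288 ± 10.6), the chaperone BiP, and Psmb5.

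Several of these genes share genomic sequence, which can limit how far their counts are separated. Of the 38 genes, 10 lie on chromosome 17 in the MHC region, and Psmb9 and Tap1 there start 226 bases apart in opposite directions. Their exons overlap by 212 bases on opposite strands, and 12.5% of the 50-base stretches of Psmb9 occur in Tap1 when both strands are searched. Erap1 shares 834 exon bases with Cast, Tapbp 149 with Zbtb22 on the same strand, Irf3 88 with Bcl2l12, and Irf9 overlaps Rnf31 on the same strand. The libraries were made with a directional kit, but the labels and files name no strand setting of the counting. Whether reads in overlaps on opposite strands were told apart is therefore not known, and strand cannot separate those on the same strand.

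Along the MHC region, levels changed sharply from one listed gene to the next. Genes of the region that were not listed were left out. Per kilobase, Tapbp (6.89 ± 0.911 CPM) and H2-K1 (17.7 ± 0.832) were followed by H2-Oa, H2-DMa and H2-DMb1 at 0.114 to 1.5 CPM. Psmb9, Tap1, Psmb8 and Tap2 came next, at 0.802, 1.64, 7.49 and 9.59 CPM. The next listed genes beyond Tap2, H2-Ob, H2-Ab1 and H2-Aa, had no counts, and H2-Eb1 had 1 count in all 3 libraries together. These 4 class II genes were thus at or near 0 beside transporter and proteasome genes with 140 to 1713 counts, whereas H2-DMa had 243 counts.

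**Figure D3:**
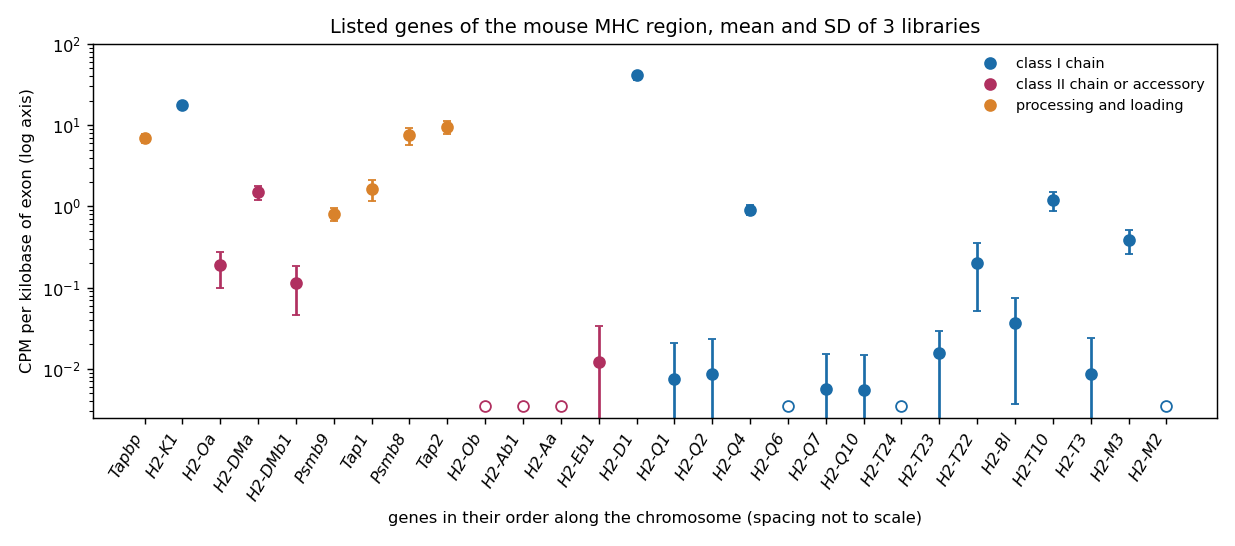
Mean level of listed genes of the mouse MHC region in CPM per kilobase of exon, on a log axis, in their order along the chromosome. Bars are SD over 3 libraries, and bars that reach the lower edge continue below it. Where the SD neared or exceeded the mean, as for H2-Bl, the lower bar was cut short of the full SD. Open circles mark genes with no counts. H2-D1 and H2-K1 stand highest, and H2-Ob, H2-Ab1 and H2-Aa have no counts.

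All 4 interferon receptor genes were detected. Ifnar1 and Ifnar2 encode the chains of the type I receptor. Ifnar1 had 58.5, 58.2 and 58.8 CPM (58.5 ± 0.335), the lowest coefficient of variation of the 29 detected genes (0.572%). Ifnar2 had 28.6, 27.6 and 24.9 CPM (27.0 ± 1.95). Per kilobase, Ifnar1 was higher than Ifnar2 in 3 of 3 libraries, by a log2 ratio of 0.28 ± 0.11. That ratio was 0.75 with the longest transcript and 1.11 without length scaling. Of the interferon gamma receptor, Ifngr1, the ligand-binding chain, had 18.3, 18 and 12.6 CPM (16.3 ± 3.18), with replicate 3 apart from the others, and Ifngr2, the signalling chain, had 43.5, 43.2 and 41.9 (42.8 ± 0.862). Per kilobase, Ifngr1 was below Ifngr2 in every library, with log2 ratios of -0.84, -0.85 and -1.32.

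The ligands of these receptors were not seen. Ifnb1, Ifng and 7 further interferon genes listed had no counts in any library. Poly(A) RNA of these genes was therefore not detectable at this depth.

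Among the kinases, Jak1, which serves both receptors, had 182, 156 and 176 CPM (171 ± 13.3). Jak2, the partner on Ifngr2, had 19.6, 17.3 and 15.0 CPM (17.3 ± 2.27), and Tyk2, the partner on Ifnar1, had 15.1, 13.3 and 9.98 (12.8 ± 2.60). Jak1 stood far above the others in every library, whereas Jak2 and Tyk2 were both highest in replicate 1 and lowest in replicate 3. Per kilobase, the log2 ratio was 2.78 ± 0.21 for Jak1 to Jak2 and 3.68 ± 0.33 for Jak1 to Tyk2. Stat2, which carries the type I signal, had 42.6, 36.3 and 30.5 CPM (36.5 ± 6.03). Of 19 further signalling genes 14 (73.7%) were detected. Highest per kilobase were Ptpn11, a phosphatase of receptor signalling, at 195 ± 10.1 CPM, Ptpn2, a phosphatase that acts on JAKs and STATs, at 40.5 ± 3.82, and Stat6, the interleukin STAT, at 53.5 ± 3.

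Irf9, which joins Stat2 in the complex that binds the interferon-stimulated response element, had 7.11, 5.95 and 6.16 CPM (6.41 ± 0.615). Irf1, an early target of interferon gamma whose promoter holds the GAS element printed above, had 34.2, 34.4 and 30.3 CPM (33.0 ± 2.30). Irf3, which stands ready in most cells and is activated by the sensors, had 14.9, 15.4 and 10.6 CPM (13.6 ± 2.63), with replicate 3 the lowest. Irf7, which amplifies the type I response and is itself induced by it, had counts of 12, 2 and 3, below the detection level in every library. The 12 counts came from replicate 1, and the sum of 17 has an exact Poisson 95% interval of 9.9 to 27.2.

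Of the sensors, Ddx58 (RIG-I) and Ifih1 (MDA5) recognise foreign RNA and signal through Mavs, and Tmem173 (STING) carries the signal of cytosolic DNA. Ddx58 had 4.34, 6.17 and 4.28 CPM (4.93 ± 1.07), and Ifih1 had 0.790, 0.574 and 0.842 (0.735 ± 0.142). Ifih1 was below 1 CPM in all 3 libraries and below Ddx58 per kilobase by a log2 ratio of -2.80 ± 0.55, or -1.97 with a pseudocount of 1 CPM in place of 0.1. Mavs had 10.9, 9.11 and 12.6 CPM (10.9 ± 1.76), and Tmem173 had 14, 17 and 14.2 (15.1 ± 1.68). The adaptors thus lay above both RNA sensors in every library, also per kilobase. Of 17 further sensing genes 12 (70.6%) were detected, led per kilobase by the kinase Tbk1 (88.5 ± 3.13 CPM), the ubiquitin ligase Trim25 (83.2 ± 6.84) and the adaptor Traf3 (65.3 ± 4.18).

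Of the interferon targets, Isg15, a ubiquitin-like protein, had counts of 21, 12 and 8, or 1.18, 0.861 and 0.518 CPM (0.854 ± 0.333). It passed 1 CPM in replicate 1 alone. Isg15 has only 756 exon bases, and per kilobase it had 1.13 ± 0.44 CPM. Of the 29 detected genes, Psmb9 (0.802), Cd274 (0.905) and Ddx58 (0.699) were lower per kilobase and the others higher. Ifit1, which binds viral RNA, had counts of 10, 4 and 9 (0.478 ± 0.166 CPM). Both genes have matches to GAAANNGAAA close to their starts, 3 overlapping ones in Isg15 and 2 in Ifit1. Bst2 (tetherin), which holds budding virus at the cell surface and has 2 overlapping matches, was detected, with 9.93, 12.8 and 9.14 CPM (10.6 ± 1.91). Cd274 (PD-L1), which restrains T cells, had 3.78, 2.37 and 3.69 CPM (3.28 ± 0.792), with replicate 2 the lowest.

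Of 37 further interferon targets 19 (51.4%) were detected, against 47.3% of all named genes. No counts were found for 6 of the 37, against 8938 of all 24384 named genes. The highest per kilobase were Ifitm2 (107 ± 5.54 CPM, fractional in the table), which blocks virus entry, Ifi30 (32.2 ± 1.09), a lysosomal thiol reductase, and Ifi27 (44.3 ± 2.62). Of 13 further ligands of T and natural killer cells 4 (30.8%) were detected. These were Cd276 (B7-H3) at 91.6 ± 6.44 CPM, Cd47, which restrains macrophages, at 70.0 ± 7.07, Pvrl2 (nectin-2) at 32.3 ± 5.09 and Pvr at 10.6 ± 0.773. Of 18 further class I genes 6 (33.3%) were detected. They were led per kilobase by Fcgrt, Cd1d1 and Mr1, class I-like chains that pair with B2m, at 10.3 ± 2.38, 9.08 ± 2.77 and 10.1 ± 2.62 CPM.

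**Figure D4:**
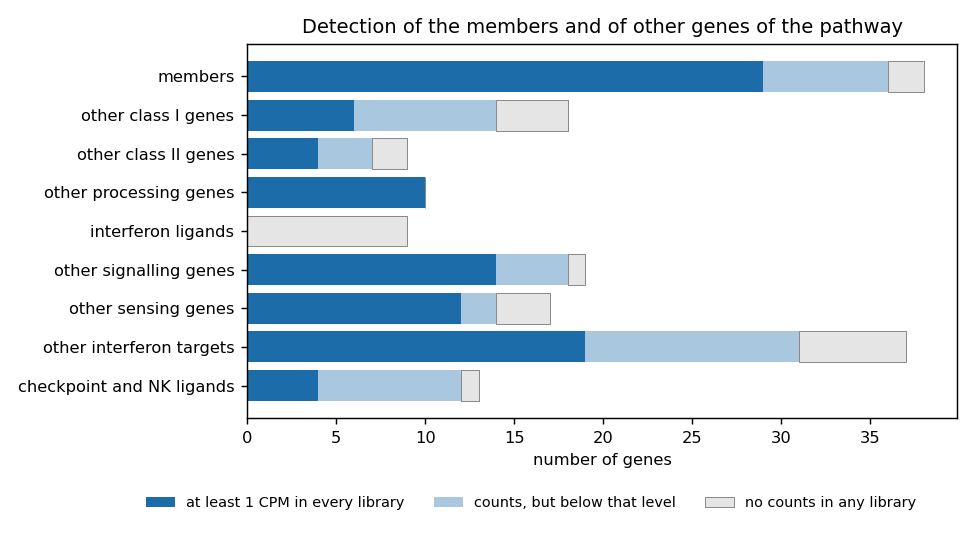
Number of genes in each list that had at least 1 CPM in every library (dark), counts below that level (light) or no counts (grey outline). All 10 further processing genes were detected, and none of the 9 interferon ligands had a count.

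The only test across genes that 1 group allows asks whether a gene varied between the libraries more than genes of its level did. It was an intercept-only edgeR fit whose deviance was compared with a chi-square distribution. Of 11821 genes tested, 76 (0.643%) were called at an adjusted p under 0.05. Of the 38 genes, 29 entered the test and 0 were called by edgeR. None of the 29 had an unadjusted p under 0.05 either, against 698 of all 11821 genes, and with the DESeq2 dispersion trend 0 were called and 0 had such a p, against 473 of all genes. The lowest edgeR p-values, unadjusted, were 0.0519 for Psmb8, 0.0734 for Tap1, 0.0863 for B2m and 0.0942 for Calr. Among 73 further genes of the pathway that entered the test, 1 was called: Lnpep, an endosomal aminopeptidase of antigen processing, with counts of 1812, 711 and 913 and an edgeR adjusted p of 0.00318. That call was lost without replicate 1 (adjusted p = 0.999) and without replicate 2 (0.194), and its adjusted p was between 0.002 and 0.0144 under the other alternatives. With no filter beyond 1 count in any library, Stat4, a STAT of interleukin signalling with counts of 29, 1 and 9, was called as well (edgeR adjusted p = 0.0444); the main filter left it out.

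Replicate 3 had the lowest value more often than the other libraries. After TMM scaling, it was the lowest for 19 of the 29 detected genes, against 33.8% of all detected genes. Relative to the mean of the other libraries, the 29 genes had a median log2 difference of -0.26 in replicate 3, with 22 of 29 below 0, against 0.00 for all 11522 detected genes, of which 49.6% were below 0. In replicates 1 and 2 the median was 0.08 and 0.04. The genes that ran the other way in replicate 3 included Mavs (0.37), Calr (0.34) and Cd274 (0.30). After values were detrended for exon length and base composition, the median in replicate 3 was -0.18 (20 of 29 below 0), and over the 23 genes with a mean of at least 10 CPM it was -0.14 (17 of 23). The coefficient of variation had a median of 14% over the 29 genes and 9.80% over all detected genes. No single gene of the set passed the test of variation, and the median itself was not tested.

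**Figure D5:**
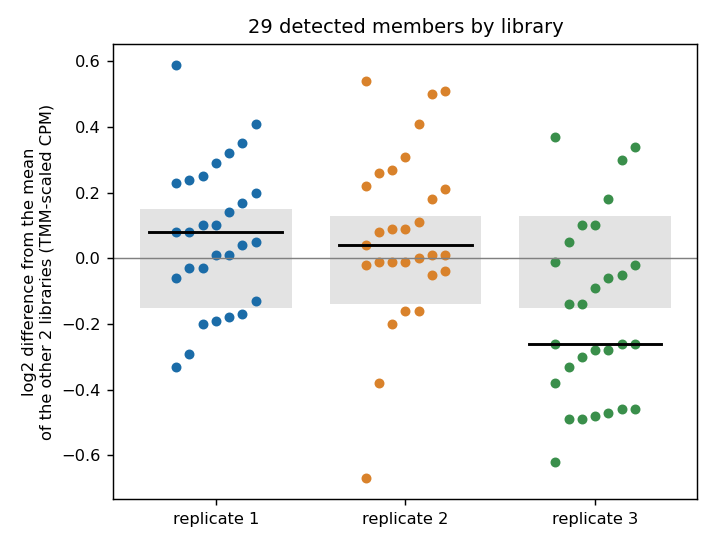
Log2 difference of each of the 29 detected genes in a library from the mean of the other libraries, after TMM scaling. Black lines are medians of the 29 genes (0.08, 0.04 and -0.26 in replicates 1, 2 and 3), and grey boxes span the lower to the upper quartile of all 11522 detected genes. Most points of replicate 3 lie below 0.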

How the data were processed

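Poly(A) RNA was extracted with ISOGEN and made into libraries with a directional kit, per the labels' protocols; STAR and mm10 are named in the submitters' processing notes. Which program counted reads, on which annotation and with what use of strand is not given in the sources used. The authors deposited expected counts per gene symbol, 1.76 to 1.98% of them fractional in a library (tolerance 0.01); they were rounded to whole numbers. The 27 rows named by calendar dates, 0.281 to 0.306% of the counts, were left out, which gave 24384 named genes.

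CPM used the total of named genes. Positions, union exon lengths and GC content came from GENCODE of the same build (98.4% of genes matched), promoters from RefSeq. Gene pairs used log2(CPM + 0.1), less the log2 of length. Variation between libraries came from edgeR 4.0.16 (R 4.3.3) with TMM, filterByExpr and trended dispersion. The deviance was set against chi-square with 2 degrees of freedom, with Benjamini-Hochberg adjustment. The fit was also run on counts simulated from its own means and dispersion trend, which cannot show its error rate on the real counts. DESeq2 1.42.0 served as an alternative. Intervals of counts are exact Poisson 95% intervals.

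The 38 genes, the lists and the tests were chosen with earlier results of these data known. Named beside them are the 3 highest detected genes per kilobase of each list, partners of pairs and genes called in the test. Others were added after their values were seen (H2-Q4, H2-T10, H2-DMa, Pvr, Stat4, Cd68, Cd79a, Aif1, Pdgfra, Col1a1, Vwf, Pecam1, neighbours in the MHC region). Alternatives covered the detection minimum, scaling, filter, dispersion, length, pseudocount and leaving out each replicate. Rnf213 was not analysed here, and some genes of the lists are not reported here.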

Additional observations from a re-analysis of the deposited data

How the results depend on the processing

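The number of detected genes of the set was 29 under both other scalings, with the date-named rows included, at 2 CPM and without each replicate in turn; it was 31 at 0.5 CPM, which added Ifih1 and Isg15, and 26 at 1 CPM per kilobase, which left out Psmb9, Ddx58 and Cd274. Genes of the set called in the test of variation numbered 0 under all 10 alternatives; at an unadjusted p under 0.05 they were at most 3, against 721 of all 11821 genes in that setting (length and GC trend removed). Over all genes the 76 calls became 116 with a common dispersion and 47 with the DESeq2 dispersion trend. They were 36 to 52 when 1 replicate was left out, where fewer libraries entered the fit. The cause of none of these changes was tested. The immunoproteasome share of 7.03% was 7.64% with the longest transcript and 8.74% without length scaling, and 6.94 to 7.13% when 1 replicate was left out. The log2 ratio of Calr to Canx, 0.14, was -0.57 without length scaling, since the genes differ in exon length. Of the other values of gene pairs under an alternative, 24 moved by more than the spread between replicates and 73 did not, with the sign kept; without length scaling, Psmb8 and Psmb10 changed places in the order of the ratios to their partners. No paired analysis was possible because there was 1 group. At 13942014 to 17731376 counts, genes such as Nlrc5, Ciita and H2-T23 rest on single counts, and no order between them can be read.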
